A study of Oryza sativa with 4 samples.

Results

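Rice transcripts assembled between annotated genes and recovered with polysomes are described here across a salt-sensitive and a salt-tolerant genotype. The transcripts were chosen by their Cufflinks class code u, which marks an assembled transcript lying outside every annotated gene, by a level of 5 FPKM or more in at least 1 of 4 libraries, and by a span of at least 200 nt in the locus column. FPKM is fragments per kilobase of transcript per 1000000 mapped reads. Because level was used to choose the transcripts, their levels are given as a description. Of 89715 assembled transcripts, 3180 had class u. Of these, 614 reached 5 FPKM, 238 of which were left out for a span under 200 nt, and 376 remained. At the level limit, TCONS_00085285 with 5.01 FPKM in its highest library lay just inside and TCONS_00053270 with 4.99 FPKM just outside. At the span limit, 1 transcript of 200 nt was kept and 2 of 199 nt were left out.

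Seedlings of IR29 (salt-sensitive) and Pokkali (Pok, salt-tolerant) were grown on Yoshida medium to an age of about 24 days and then received 150 mM NaCl for 24 h or stayed on the medium. Polysomes, here the gradient fractions with more than 2 ribosomes, were collected from ground seedlings, and poly(A) RNA prepared from them was sequenced without strand information. The 4 groups, IR29 control, IR29 salt, Pok control and Pok salt, each had 1 library. Equal RNA from several biological samples was pooled in the total RNA step of the study, and whether the polysomal RNA was pooled likewise was not stated in the sources used here. With 1 library per group no difference below has a replicate error, so fold values compare these libraries, and no test was made between conditions.

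A polysome is an mRNA carrying several ribosomes, and RNA recovered with polysomes is commonly used as a measure of the translatome. Transcripts from intergenic regions include long noncoding RNAs, unannotated genes for short proteins, pieces of neighbouring genes and copies of transposable elements. Presence in a polysome fraction does not by itself show that an RNA is translated, because other large ribonucleoprotein particles sediment there too. In such bulk samples a higher level per cell and more cells of one type cannot be told apart.

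The libraries carried the marks of their labels. The dehydrin transcripts Os11g26750.1, Os11g26760.1 and Os11g26790.1, which encode hydrophilic proteins made under water deficit, lay between 0.172 and 3.73 FPKM in IR29 control and between 11.3 and 89.3 FPKM in IR29 salt. In Pok they lay between 0.597 and 6.31 FPKM in control and between 66.4 and 467 FPKM in salt. Shoot RNA was present in each library, in unequal amounts. The small subunit of Rubisco, Os12g17600.2, had 2075, 189, 1759 and 739 FPKM in IR29 control, IR29 salt, Pok control and Pok salt, and Os12g19470.2, of the same family, 185, 54.7, 92.1 and 79.3 FPKM. The 17 transcripts of chlorophyll A-B binding proteins summed to 2590, 913, 4227 and 2862 FPKM. Of the root markers, the silicon transporter Os02g51110.1 had 50.4, 8.93, 20.2 and 34.1 FPKM. The NAS transcripts Os03g19420.2 and Os03g19427.1, of an enzyme that makes the metal chelator nicotianamine, had 0.825, 0.185, 0.563 and 10.7 FPKM and 1.3, 0.107, 0.905 and 14 FPKM, and the iron transporter Os03g46470.1 was at or under 0.65 FPKM in each library. IR29 salt was thus the lowest library for these shoot markers and for the first 3 of the root markers, and Pok salt was the highest for the NAS transcripts. FPKM values recurred in steps that correspond to single reads, which gave 59886979 reads as the base of IR29 control, 46522626 of IR29 salt, 32033883 of Pok control and 26622494 of Pok salt. Taken over 7424 annotated transcripts that each library had at 5 FPKM or above, the ratio on the log2 scale had a median of 0.26 for IR29 salt over control, 0.06 for Pok salt over control, 0.33 for Pok control over IR29 control and 0.12 for Pok salt over IR29 salt. Ratios of intergenic transcripts below are as deposited and can be read against these shifts.

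Sequences were held for 106 of the 376 transcripts, 47 of them complete, and the others cut after 399 bases. The portion held is not a random sample of the transcripts. Of 10 transcripts the first 300 bases are given, or all where shorter. They comprise the 3 transcripts with the highest mean level, 2 that were higher under salt in IR29, 1 that was higher under salt in Pok, 1 that was lower under salt, 2 present in Pok and near 0 in IR29, and 1 present in IR29 and listed at 0 in Pok. TCONS_00008275, TCONS_00053293 and TCONS_00043325 were selected after their values were seen. Capitals mark the longest stretch from ATG to a stop codon found in the bases shown on either strand. On TCONS_00036088, TCONS_00008275, TCONS_00036972 and TCONS_00053293 that stretch reads on the opposite strand, so the capitals are its reverse complement. On TCONS_00023086 the capitals mark the only match to GGTTCGANNCC, the consensus of the internal promoter element called the B box of genes read by RNA polymerase III. That motif, searched on both strands, was in 1 of the 106 transcripts and in 0.244% of the 821 intergenic sequences held.
TCONS_00047116: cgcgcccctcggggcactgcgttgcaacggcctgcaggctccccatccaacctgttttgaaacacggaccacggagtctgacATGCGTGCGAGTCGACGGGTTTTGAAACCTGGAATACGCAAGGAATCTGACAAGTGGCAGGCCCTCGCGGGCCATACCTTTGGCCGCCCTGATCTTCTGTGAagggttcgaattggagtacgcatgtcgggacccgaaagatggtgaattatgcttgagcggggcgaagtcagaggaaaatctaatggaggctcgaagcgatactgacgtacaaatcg
TCONS_00036088: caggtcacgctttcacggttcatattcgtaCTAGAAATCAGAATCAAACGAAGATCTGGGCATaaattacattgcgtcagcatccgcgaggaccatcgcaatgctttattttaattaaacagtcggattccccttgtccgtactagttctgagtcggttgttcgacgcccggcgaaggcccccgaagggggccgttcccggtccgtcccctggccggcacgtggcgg
TCONS_00023086: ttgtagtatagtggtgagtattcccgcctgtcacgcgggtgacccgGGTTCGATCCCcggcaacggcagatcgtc
TCONS_00008275: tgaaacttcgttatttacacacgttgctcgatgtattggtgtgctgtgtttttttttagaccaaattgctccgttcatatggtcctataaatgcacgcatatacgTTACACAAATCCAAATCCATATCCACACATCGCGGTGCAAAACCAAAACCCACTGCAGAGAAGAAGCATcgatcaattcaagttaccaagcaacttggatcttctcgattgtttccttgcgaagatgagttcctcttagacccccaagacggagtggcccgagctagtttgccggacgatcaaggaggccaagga
TCONS_00036972: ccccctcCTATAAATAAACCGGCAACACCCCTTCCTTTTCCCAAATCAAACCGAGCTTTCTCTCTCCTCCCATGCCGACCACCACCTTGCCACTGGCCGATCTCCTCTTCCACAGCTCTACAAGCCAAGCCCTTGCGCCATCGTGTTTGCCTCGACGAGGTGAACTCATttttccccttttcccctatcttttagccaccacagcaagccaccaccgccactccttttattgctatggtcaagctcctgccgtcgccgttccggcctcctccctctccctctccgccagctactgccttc
TCONS_00020602: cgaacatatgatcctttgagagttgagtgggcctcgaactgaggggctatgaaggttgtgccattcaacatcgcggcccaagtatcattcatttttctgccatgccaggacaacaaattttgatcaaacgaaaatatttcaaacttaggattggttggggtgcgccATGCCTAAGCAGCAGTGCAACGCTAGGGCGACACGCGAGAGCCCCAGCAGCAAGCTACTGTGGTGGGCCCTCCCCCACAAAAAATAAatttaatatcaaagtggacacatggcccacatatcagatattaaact
TCONS_00030747: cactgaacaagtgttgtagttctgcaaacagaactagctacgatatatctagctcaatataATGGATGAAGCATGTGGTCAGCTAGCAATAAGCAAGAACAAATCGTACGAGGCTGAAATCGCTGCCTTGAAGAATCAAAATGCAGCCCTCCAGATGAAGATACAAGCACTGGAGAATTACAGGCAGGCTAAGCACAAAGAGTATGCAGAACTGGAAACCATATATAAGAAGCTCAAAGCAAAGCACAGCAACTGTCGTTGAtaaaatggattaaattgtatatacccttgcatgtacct
TCONS_00038652: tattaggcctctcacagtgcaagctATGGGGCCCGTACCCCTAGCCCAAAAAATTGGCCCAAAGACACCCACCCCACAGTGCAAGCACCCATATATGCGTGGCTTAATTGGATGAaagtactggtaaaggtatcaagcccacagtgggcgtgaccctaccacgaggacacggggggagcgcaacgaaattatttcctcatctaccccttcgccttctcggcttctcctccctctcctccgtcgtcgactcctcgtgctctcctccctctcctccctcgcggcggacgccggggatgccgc
TCONS_00053293: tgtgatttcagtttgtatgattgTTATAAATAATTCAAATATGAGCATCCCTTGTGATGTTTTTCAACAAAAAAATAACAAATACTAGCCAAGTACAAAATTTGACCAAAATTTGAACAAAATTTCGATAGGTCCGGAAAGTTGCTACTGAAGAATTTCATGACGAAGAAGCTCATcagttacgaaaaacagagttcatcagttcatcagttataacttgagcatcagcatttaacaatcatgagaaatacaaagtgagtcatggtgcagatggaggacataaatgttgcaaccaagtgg
TCONS_00043325: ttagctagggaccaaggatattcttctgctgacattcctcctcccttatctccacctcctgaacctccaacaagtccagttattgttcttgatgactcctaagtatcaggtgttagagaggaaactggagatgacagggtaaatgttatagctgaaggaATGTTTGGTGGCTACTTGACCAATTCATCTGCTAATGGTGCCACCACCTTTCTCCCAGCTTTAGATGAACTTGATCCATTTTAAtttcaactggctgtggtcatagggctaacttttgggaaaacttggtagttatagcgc

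The marked stretches ran from 10 codons on TCONS_00036088 to 66 codons on TCONS_00030747, without the stop. The end of the bases shown changed the marked stretch of 2 transcripts, since over all bases held the longest had 81 codons on TCONS_00008275 and 66 codons on TCONS_00020602, both on the strand shown. Over all 106 sequences, as far as they were held, the longest such stretch had a median of 38 codons and a maximum of 115, and 34 of the 106 reached 50 codons. GC content had a median of 48.5%, quartiles of 43.8% and 59.9%, and a range of 34.1% to 75.9%. TCONS_00047116 and TCONS_00036088, the most abundant, carried only 33 and 10 codons in the bases shown. The 106 sequences were not compared with known RNAs such as ribosomal or transfer RNA, so the kind of RNA was not tested. Since the reads carried no strand information, a stretch on one strand does not by itself tell which strand was the RNA.

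The 376 transcripts came from 348 assembled loci, and 201 of them were the only transcript of their locus. Span is the distance between the ends of the assembled locus and not the length of the transcript. It had a median of 1539 nt with quartiles of 414 and 15714 nt, and the longest was 312424 nt. The transcripts that were alone at their locus had a median span of 429 nt, with 108 of 201 under 500 nt, whereas those in shared loci had a median of 17922 nt. Annotated transcripts alone at their locus, chosen by the same level and span limits, had a median of 2074 nt. Of 12568 annotated transcripts 28.1% were alone at their locus, against 53.5% of the intergenic ones. Of the 47 complete sequences, 31 were shorter than the span of their locus, and 8 were under 200 nt although the locus passed the limit.

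**Figure D1:**
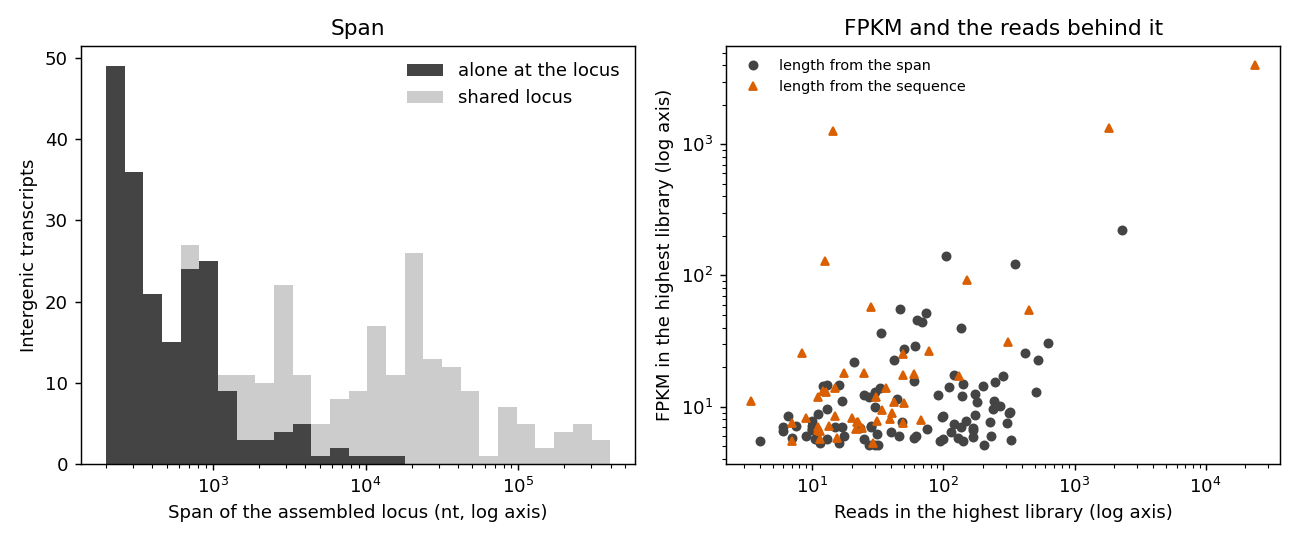
Left, number of intergenic transcripts by span of the assembled locus in nt (log axis), dark for the 201 alone at their locus and light for those in shared loci. Right, FPKM against reads in the highest library of each of the 143 transcripts of known length, both on log axes, showing that a level above 100 FPKM went with as few as 12.5 reads or as many as 23891.

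For 143 transcripts the length was known, from a complete sequence in 47 and from the span in 96, and their FPKM could be turned into reads. In their highest library these transcripts had a median of 44 reads, with 41 of 143 under 20 reads and 96 of 143 under 100. A transcript of 200 nt at 5 FPKM stands for 8.29 reads in IR29 control and 3.68 reads in Pok salt, and one of 1000 nt for 238 and 106 reads. The same FPKM was thus counted on more reads in IR29 than in Pok, and on far more in a long transcript than in a short one. Intervals below are 95% binomial intervals for counting error alone, taken after rounding the derived reads to whole numbers. Of 175 read values from complete sequences 41.1% came out whole, so intervals on fractional reads are approximate.

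In level, 207 of the 376 transcripts had their highest value between 5 and 10 FPKM, 133 between 10 and 50, 13 between 50 and 100, and 23 at 100 FPKM or more. The limit of 5 FPKM was reached by 164 transcripts in the IR29 control library and 242 under salt, and by 199 and 235 in Pok. It was reached in all 4 libraries by 93 transcripts and in a single library by 136. At least 1 library listed 83 transcripts at 0, or 22.1%, against 4.34% of annotated transcripts under the same limits.

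TCONS_00047116, at a locus on chr6:8365521-8386267 that also holds Os06g14780.2, annotated as an expressed protein, was the most abundant. Its level was 802 FPKM in the IR29 control and 2754 under salt, and in Pok 4021 and 2791 FPKM, on 8912 to 23891 reads. The IR29 control library was the low one, 3.43-fold under IR29 salt (interval 3.35 to 3.52) and 5.01-fold under Pok control (4.89 to 5.14). TCONS_00036088, 227 nt long at chr4:17533781-17534543, showed the same order with 101, 519, 1341 and 822 FPKM, on 258, 1033, 1836 and 936 reads. Its 2 partners at that locus, TCONS_00036086 and TCONS_00036087, were also lowest in IR29 control, at 40.6 and 28.9 FPKM, and highest in Pok control, at 187 and 115 FPKM. The nearest annotated transcript, Os04g29730.1, lay 12016 nt away.

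The next values show how a high FPKM can rest on few reads. TCONS_00023086 is 75 nt long in a locus of 17800 nt, and its 34.4, 160, 1265 and 806 FPKM stood for 0.733, 2.66, 14.4 and 7.63 reads. Its Pok control level was 36.8-fold that of IR29 control, with an interval from 3.98 to 1107. TCONS_00087586, at chr12:11401200-11402204, was listed at 0 in both controls, at 1729 FPKM in IR29 salt and at 432 FPKM in Pok salt. The reads of its 2 salt libraries stood as 7 to 1, so these levels may be those of as few as 7 reads and 1 read. TCONS_00054376, at chr7:6678598-6691503, had 237 FPKM in IR29 control, 555 in IR29 salt and was listed at 0 in both Pok libraries, with reads as 11 to 20. The plot of the 10 most abundant transcripts shows these gaps.

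In contrast, TCONS_00089319 at chr12:13048938-13049362 was alone at its locus, 425 nt long and deeply covered, with 2175, 2294, 1549 and 1190 reads. Its levels of 165, 224, 219 and 203 FPKM were within 1.5-fold of each other. TCONS_00063852, TCONS_00085476 and TCONS_00022194 also varied by under 2-fold, with ranges of 294 to 491, 225 to 370 and 165 to 327 FPKM. Their loci hold 35, 16 and 7 assembled transcripts, and TCONS_00022194 shares its locus with Os03g18150.1, annotated as a protein phosphatase. TCONS_00088773, in a locus of 57 transcripts, stood at 79.8, 166, 460 and 159 FPKM and was highest in Pok control.

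**Figure D2:**
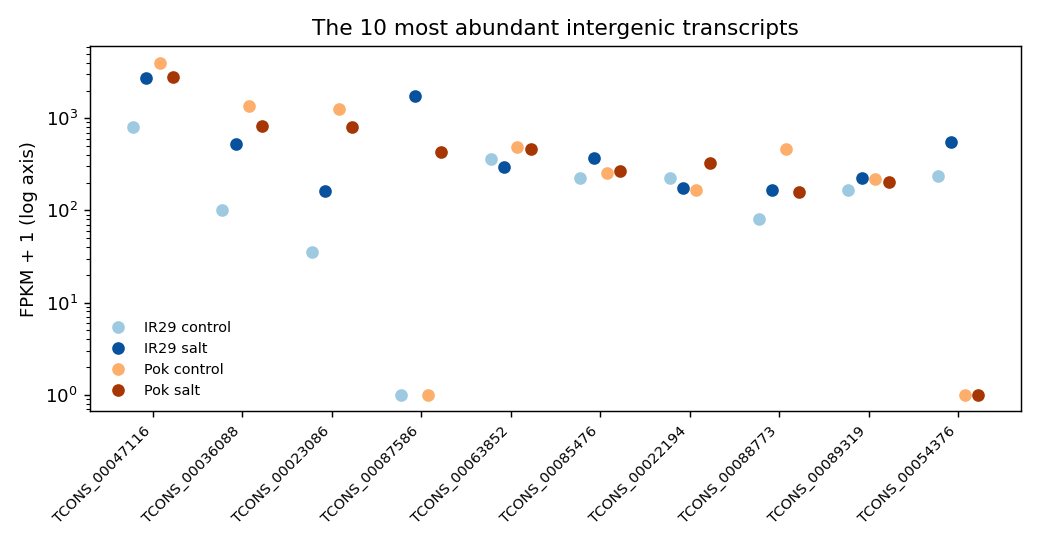
FPKM + 1 on a log axis in each of the 4 libraries for the 10 intergenic transcripts of highest mean level, 1 point per library. TCONS_00089319 stays between 165 and 224 FPKM, whereas TCONS_00087586 and TCONS_00054376 each drop to 0 in 2 libraries.

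In the salt comparison of IR29, 275 transcripts had 5 FPKM or more in at least 1 library of the pair. Of these, 103 were at least 2-fold higher in salt, or 37.5%, beside 22.4% of all 18905 transcripts of any class under the same limits. At least 2-fold lower were 25, or 9.09%, beside 7.55%. The median log2 ratio, with 1 FPKM added to each value, was 0.57 over the intergenic transcripts and 0.34 over all. When the libraries were centred on annotated transcripts the counts were 73 higher and 30 lower of 242 considered. With upper-quartile scaling they were 69 and 32 of 239. Shares of all classes under these scalings are not given here. Of the 40 higher transcripts with known reads, 39 had an interval above 1. The same values had chosen these transcripts, so the intervals describe read depth and are no separate support for a rise. The shoot markers and the silicon transporter were lower in IR29 salt than in IR29 control, as given above, and their part in these shares was not tested.

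With the values as deposited, the share higher in salt was smaller in Pok than in IR29 and the share lower in salt was larger. Of 274 transcripts considered, 61 were at least 2-fold higher in salt, or 22.3%, beside 16.5% of all 19561. At least 2-fold lower were 32, or 11.7%, beside 7.92%. The median log2 ratio was 0.17 against 0.08 over all transcripts. Centring gave 42 higher and 26 lower of 205, and upper-quartile scaling turned the balance, to 35 higher and 37 lower of 223. Of the 32 higher transcripts with known reads, 15 had under 20 reads in the higher library, and 21 had an interval above 1. These too were chosen by the same values, so their intervals are no separate support. The NAS transcripts and the silicon transporter were higher in Pok salt than in Pok control, and their part was not tested. Some classes had larger shares than the intergenic transcripts. Exon antisense transcripts, which overlap an annotated exon on the other strand, were higher in Pok salt in 24.5% and lower in IR29 salt in 11.4%, and splice variants were lower in IR29 salt in 9.28%.

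**Figure D3:**
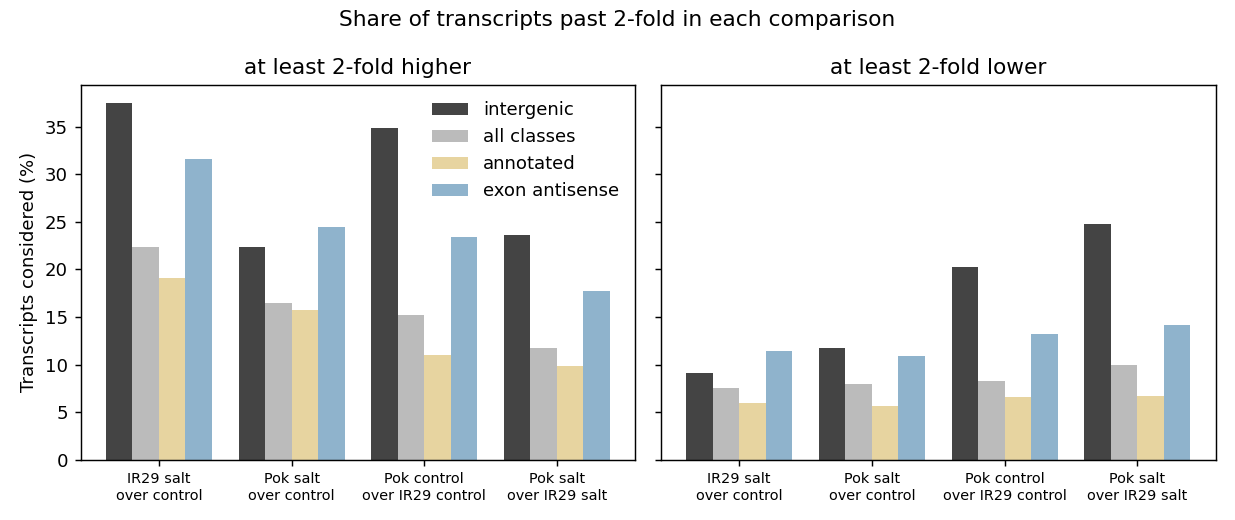
Percentage of the transcripts considered that were at least 2-fold higher (left) or lower (right) in each of the 4 comparisons, for intergenic transcripts, all classes, annotated transcripts and exon antisense transcripts. The intergenic bar lies above those of all classes and of annotated transcripts in each group, at 37.5% against 22.4% for the higher side of IR29 salt over control and 24.8% against 9.95% for the lower side of Pok salt over IR29 salt, and below the antisense bar on the higher side of Pok salt over control and the lower side of IR29 salt over control.

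Across both genotypes, 47 of the 376 transcripts were at least 2-fold higher in salt in both IR29 and Pok, or 12.5%, beside 9.86% of all 21917 transcripts at 5 FPKM in any library. No minimum within each pair was asked for here, and 14 of the 47 were at 0 in a control. They include TCONS_00036972, which in Pok went only from 0 to 0.192 FPKM. At least 2-fold lower in both were 10, or 2.66%, beside 2.05%. With 5 FPKM asked for in each pair, 20 of 173 were higher in both, or 11.6%, beside 9.07% of all 16549, and 5 were lower in both, or 2.89%, beside 1.7%. These shares lie close to those of all classes, and exon antisense transcripts had a larger share higher in both without the minimum, 14.1%. For the 47, the median level was 0.91 and 8.03 FPKM in IR29 control and salt, and 1.12 and 5.92 FPKM in Pok control and salt. The ratio was larger in IR29 than in Pok in 34 of the 47.

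The transcript with the largest IR29 ratio among those above 0 in both libraries was TCONS_00066591, 648 nt long at chr8:4542464-4543111. It had 19 and 626 reads in IR29 control and salt and 18 and 130 in Pok, or 0.716, 30.4, 1.27 and 11 FPKM. That was 42.4-fold higher in IR29 salt (interval 26.9 to 70.9) and 8.69-fold in Pok salt (5.29 to 15.1). The annotated neighbour, Os08g08020.1, lay 1764 nt away. TCONS_00053277, 680 nt long at chr6:7728981-7729660, had 16 and 243 reads in IR29 and 14 and 116 in Pok, which was 19.6-fold (11.8 to 34.8) and 9.97-fold (5.71 to 18.8). TCONS_00053260 at chr6:5489332-5489617 had 3, 52, 6 and 30 reads, 22.3-fold higher in IR29 salt and 6.02-fold in Pok salt. In each of these 3 transcripts both salt libraries lay above both controls.

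A pair of neighbouring loci on chromosome 1 had similar values. TCONS_00011012, at chr1:15399121-15400174, had 43, 513, 20 and 115 reads in IR29 control, IR29 salt, Pok control and Pok salt. TCONS_00011013, which begins after a gap of 1510 nt at chr1:15401685-15402753, had 51, 303, 17 and 92 reads. The first was 15.4-fold higher in IR29 salt and 6.92-fold in Pok salt, the second 7.65-fold and 6.51-fold. Their nearest annotated transcript, Os01g27620.1, is a hypothetical protein. Both were named after their values were seen.

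TCONS_00008275, at a locus on chr1:24379573-24399986 that also holds Os01g42870.1, annotated as a transferase, was the most abundant of the transcripts higher in both genotypes that had no library at 0 and a ratio above 5 in each. Its level went from 19.2 to 206 FPKM in IR29 and from 13.6 to 82.7 FPKM in Pok, ratios of 10.7 and 6.08. TCONS_00077253, 310 nt at chr10:18969021-18969330, was higher by less, with 327.5 and 542.5 reads in IR29 and 198.5 and 354.5 in Pok. Its ratios of 2.13 (1.86 to 2.46) and 2.15 (1.81 to 2.58) were nearly equal in the 2 genotypes. It was named after its values were seen.

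**Figure D4:**
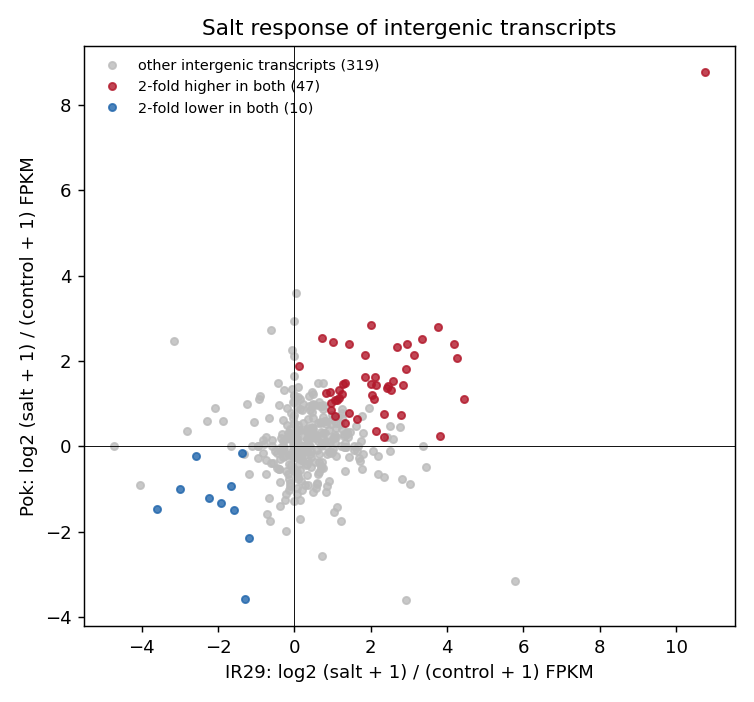
Log2 ratio of salt over control, with 1 FPKM added, in IR29 (horizontal) and Pok (vertical), 1 point for each of the 376 intergenic transcripts. Red points are the 47 that were at least 2-fold higher in both genotypes, blue points the 10 that were at least 2-fold lower in both, and the red point far to the upper right is TCONS_00087586.

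Of the other large ratios, several lay in loci with many transcripts or at low levels. TCONS_00069494, in a locus of 9 transcripts at chr9:1534301-1552135, had 0.26 and 8.08 FPKM in IR29 control and salt and 0.179 and 2.21 FPKM in Pok. TCONS_00066704, at chr8:18273780-18277733, had 0.264 and 7.66 FPKM in IR29 and 2.19 and 3.37 FPKM in Pok. TCONS_00038805, at chr4:30092322-30105395, went from 0 to 12.6 FPKM in IR29 and from 0.68 to 10.6 FPKM in Pok. In these 3 the salt library was the higher one of each pair, and the Pok pair of TCONS_00066704 differed by under 2-fold. TCONS_00080738, at chr11:3444381-3445494, was listed at 0 in IR29 control and at 20.8 FPKM in IR29 salt, with 0.526 and 2.32 FPKM in Pok.

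Some transcripts were higher under salt in IR29 with little in Pok. TCONS_00036972, at chr4:24798344-24801138 and 447 nt from Os04g42240.1, had 0.91 and 26 FPKM in IR29 and 0 and 0.192 FPKM in Pok. TCONS_00038745, in a locus ending 76 nt before it, had 0 and 9.9 FPKM in IR29 and 0.401 and 0 FPKM in Pok. TCONS_00088539, at chr12:21492110-21492477, had 4.66 and 31.4 FPKM in IR29 and 2.99 and 2.69 FPKM in Pok. In all 3 the IR29 salt library alone stood high. TCONS_00038745 was named after its values were seen.

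The reverse was seen in TCONS_00020602, 331 nt at chr2:26573602-26573932, which had 20.9 and 8.48 reads in IR29 control and salt and 7.44 and 60.1 in Pok. It was 9.71-fold higher in Pok salt than in Pok control (4.71 to 26.7), and its IR29 ratio was 0.521 with an interval from 0.188 to 1.15. TCONS_00072146, at chr10:857661-860611, had 1.22 and 12 FPKM in Pok control and salt and 0 and 0.647 FPKM in IR29. TCONS_00053298, 322 nt at chr6:9899674-9899995, had 0.333 and 21.5 reads in Pok, so its 77.6-fold ratio had a counting interval with a lower bound of 6.27. In IR29 it went from 0 to 17 reads, at least 7.29-fold against a floor of 3 reads in the library at 0.

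Fewer transcripts were lower under salt. TCONS_00083141, at chr11:28174000-28174260, had 276 and 21.8 FPKM in IR29 control and salt and 10.5 and 3.17 FPKM in Pok, with reads as 196 to 12 to 4 to 1. It was lower in salt in both genotypes and far higher in IR29 control than in any other library. TCONS_00030747, at chr4:2057185-2057900, whose 66-codon stretch is shown above, had 7.83 and 0.49 FPKM in IR29 and 0.305 and 0.122 FPKM in Pok, with reads as 144 to 7 to 3 to 1. TCONS_00001537, at chr1:12135683-12136267, had 10.7 and 0.674 FPKM in IR29, and 0.245 and 0.589 FPKM in Pok. TCONS_00011314, 213 nt at chr1:38062912-38063124, was lower in both genotypes, but on 11.5, 3, 9 and 1 reads, and its IR29 interval of 0.0583 to 1.19 reached past 1. The single-library values of TCONS_00028894, 25.6 FPKM in IR29 control and 0 elsewhere, and of TCONS_00020312, 6.66 FPKM in Pok salt and 0 elsewhere, stood for 8.41 and 11 reads.

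In Pok, the largest falls among transcripts above 0 were of low levels. TCONS_00054373, at chr7:6660050-6662503, had 5.18 and 0.04 FPKM in Pok control and salt and 0.489 and 1.48 FPKM in IR29. TCONS_00035438, at chr4:10299502-10302428, had 5.99 and 0.761 FPKM in Pok and 3.75 and 3.08 FPKM in IR29. TCONS_00040793, 282 nt in a locus that also holds Os05g31570.1, annotated as a disease resistance protein, had 15.4 and 3.5 reads in Pok, a ratio of 0.273 with an interval of 0.0775 to 1.01. TCONS_00036945, at chr4:24670465-24670843, had 10.9 FPKM in Pok control and was listed at 0 in Pok salt, with 6.65 and 2.14 FPKM in IR29. TCONS_00061532, at chr8:10027255-10028576, had 32 and 15.6 FPKM in Pok and 6.95 and 0 FPKM in IR29, with reads as 13 in IR29 control to 32 and 13 in Pok control and salt. TCONS_00003846, at a locus with Os01g54300.1, had 51.7 and 9.78 FPKM in IR29 control and salt, whereas in Pok it had 6.23 and 9.91 FPKM.

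By the ratio of their share to that of all classes, the intergenic transcripts stood farther apart between genotypes than under salt. In the controls, 89 of 256 were at least 2-fold higher in Pok, or 34.8%, beside 15.2% of all 17972 transcripts. At least 2-fold lower were 52, or 20.3%, beside 8.26%. Centred on annotated transcripts, the counts were 55 and 66 of 222, and with upper-quartile scaling 68 and 58 of 238. Which genotype held more was thus not fixed. Under salt, 78 of 330 were at least 2-fold higher in Pok than in IR29, or 23.6%, beside 11.7% of all 20001. At least 2-fold lower were 82, or 24.8%, beside 9.95%. These 2 comparisons share libraries with the salt comparisons above.

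Taking the control and salt library of a genotype together, 52 of the 376 transcripts had both Pok libraries at least 2-fold above both IR29 libraries, or 13.8%, beside 2.99% of all 21917. For the reverse there were 43, or 11.4%, beside 2.61%. At 10-fold, 35 transcripts, or 9.31%, had both Pok libraries above both IR29 libraries, beside 1.41% of all, and 26, or 6.91%, had both IR29 libraries above, beside 1.37%. Among annotated transcripts the 10-fold shares were 0.899% and 1.11%. The limits of this pattern were set after the data were seen. Reads of both genotypes were aligned to the same japonica genome, so sequence absent or diverged in a genotype and low level cannot be told apart here. The sets of all classes and of annotated transcripts met the same minimum limits but were not matched for level or span. Intergenic transcripts were known only from assembly of the study's reads and needed 5 FPKM in 1 library. A transcript high only in Pok or IR29 could thus enter. Of the 93 transcripts at 5 FPKM in all 4 libraries, a limit that leaves out those low in a genotype, 3 were separated 2-fold. Splice variants and exon antisense transcripts, also assembled, each had 3.39% with Pok 2-fold above and 2.4% and 2.93% the reverse. What part this choice had in the genotype shares was not tested.

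The 35 Pok transcripts had medians of 7.76 and 8.4 FPKM in Pok control and salt. None exceeded 0.11 FPKM in IR29 control or 0.326 FPKM in IR29 salt. They came from 12 chromosomes, with 7 on chromosome 12. IR29 control listed 28 of the 35 at 0 and IR29 salt 17, and the summed FPKM over the 35 was 0.436 and 2.62 in IR29 control and salt, and 337 and 339 in Pok. The IR29 traces were larger in the salt library, which had fewer reads than its control, and the source of these reads was not tested. Of the 26 IR29 transcripts, Pok control listed 15 at 0 and Pok salt 20.

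**Figure D5:**
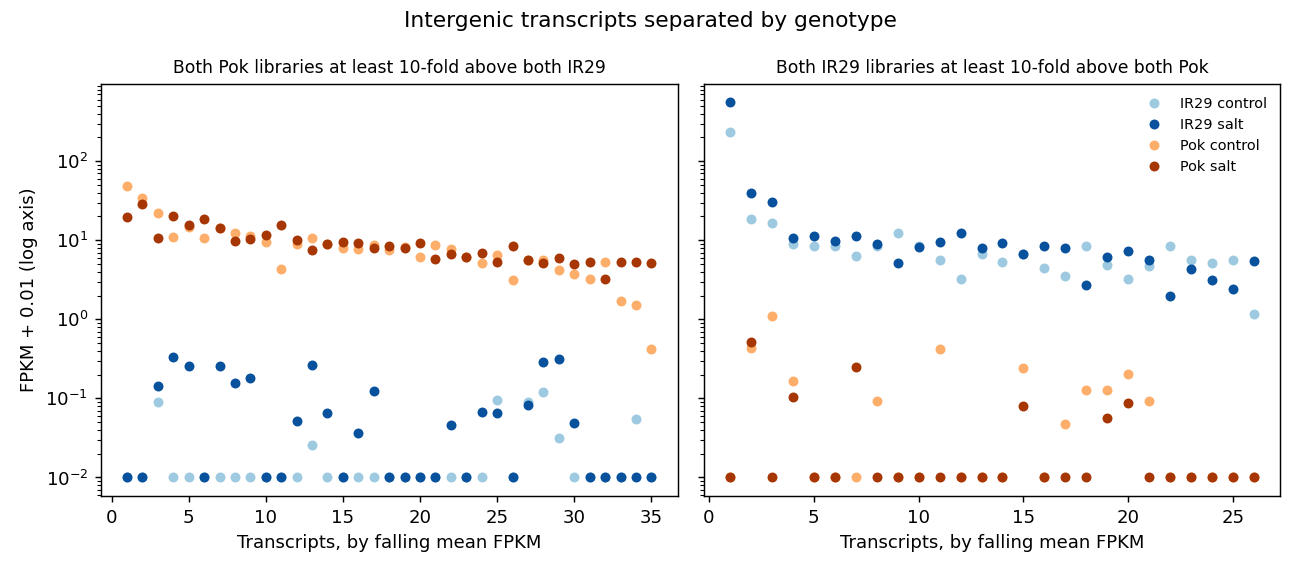
FPKM + 0.01 on a log axis in each of the 4 libraries for the 35 intergenic transcripts with both Pok libraries at least 10-fold above both IR29 (left) and the 26 with the reverse (right), ordered by falling mean level. Points at 0.01 are values listed at 0, and traces of IR29 salt up to 0.326 FPKM lie over those of IR29 control on the left.

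Among those with known reads, TCONS_00038652, at chr4:19190362-19191580 and shown above, had 0 and 2 reads in IR29 control and salt and 288 and 272 in Pok. That was at least 179-fold higher in Pok control, against the floor of 3 reads, and 237-fold in Pok salt (65.2 to 1972). TCONS_00077114, at chr10:4525741-4526548, had 0, 7, 283 and 247 reads, at least 176-fold higher in Pok control and 61.7-fold in Pok salt (29.5 to 155). TCONS_00053293, at chr6:9224811-9225756, had 0, 2, 121 and 137 reads, and TCONS_00060298, at chr7:16048414-16049219, had 0, 1, 149 and 106. In each of these 4 the Pok libraries differed by under 1.5-fold from each other.

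Further Pok transcripts lay in larger loci. TCONS_00083275, in a locus of 29 transcripts with Os11g10130.1, had 0.079 and 0.136 FPKM in IR29 control and salt and 22 and 10.7 FPKM in Pok. TCONS_00080688, in a locus of 10 with Os11g06190.1, had 0 and 0.0263 FPKM in IR29 and 7.76 and 9.11 FPKM in Pok, and TCONS_00084875, with Os12g24020.2, had 0 and 0.0561 against 9.09 and 8.85 FPKM. TCONS_00087362, alone at chr12:9334659-9335567, had 0.0154 and 0.258 FPKM in IR29 and 10.6 and 7.56 FPKM in Pok. In the last of these the IR29 salt trace was again the larger one.

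TCONS_00086866 and TCONS_00045156 had the highest levels of the group, 49.2 and 19.7 FPKM for the first and 34.7 and 28.9 FPKM for the second in Pok control and salt, and were listed at 0 in IR29. Their reads stood as 3 to 1 and 13 to 9, so the first may rest on as few as 4 reads in all. On chromosome 9, 3 of the transcripts followed each other: TCONS_00072041, TCONS_00072042 and TCONS_00071462, at chr9:20332725-20332926, chr9:20333212-20333609 and chr9:20334812-20335894. Their levels in Pok control and salt were 7.62 and 8.52, 6.46 and 5.24, and 3.27 and 5.24 FPKM, and in IR29 the second alone was above 0, at 0.0863 and 0.0556 FPKM. TCONS_00072041 and TCONS_00071462 were named after their values were seen.

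In the other direction, TCONS_00011005, at chr1:14878309-14879270, had 385 and 320 reads in IR29 control and salt and 2 and 0 in Pok. Its nearest annotated transcript, Os01g26210.1, a wall-associated receptor-like kinase, lay 776 nt away. TCONS_00089364, at chr12:15950238-15950508, had 82.5 and 137 reads in IR29 and 1 and 1 in Pok, and was 2.14-fold higher in IR29 salt than in IR29 control (1.62 to 2.86). TCONS_00053278, at chr6:7822173-7822914, had 213, 167, 4 and 1 reads. TCONS_00043325, at chr5:8190639-8191274, whose sequence is shown above, had 74.5 and 68 reads in IR29 and 0 in both Pok libraries, at least 13.3-fold and 13-fold higher in IR29. TCONS_00037457, at chr4:28181744-28182916, had 4.81 and 6.22 FPKM in IR29 and 0.118 and 0.0473 FPKM in Pok, with reads as 229 to 230 to 3 to 1. TCONS_00080331, in a locus with Os11g01690.1, had 9.09 and 10.7 FPKM in IR29 and 0.158 and 0.0951 FPKM in Pok. The IR29 control and salt levels lay within 1.5-fold of each other in each of these apart from TCONS_00089364.

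In 4 loci 3 or more of the transcripts lay together, 16 in all. The 3 at chr4:17533781-17534543, given above, were alike in their lowest and highest libraries, whereas ratios were unlike within the loci on chromosomes 12 and 1. At chr12:12291208-12293879, TCONS_00084741 had 2.05 and 4.11 FPKM in IR29 control and salt and 34.6 and 64.8 FPKM in Pok, whereas TCONS_00084742 of the same locus had 12.3, 2.52, 3.3 and 0.717 FPKM. At chr1:18825707-18838577, TCONS_00007677 had 15.5 and 27.2 FPKM in Pok control and salt and TCONS_00007678 had 9.2 and 2.06 FPKM. The 5 transcripts of the chromosome 8 locus, which also holds Os08g44150.1, lay between 3.97 and 48.4 FPKM. Overlapping transcripts share reads, which the assembler divides among them, so values within a locus are not separate measurements.

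By position, the 376 transcripts lay on all 12 chromosomes, with 4 on unplaced sequence. Chromosome 1 held the most, 56, followed by 44 each on chromosomes 4 and 12. Per megabase, chromosome 12 had 1.6 and chromosome 2 had 0.668. Chromosome 12 held 11.7% of the intergenic transcripts and 5.32% of annotated transcripts under the same limits, and chromosome 2 held 6.38% and 11.9%. Neighbouring member loci within 5000 nt of each other formed 12 pairs.

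An annotated transcript was part of the same assembled locus for 121 of the 376. For the other 255, the nearest locus with an annotated transcript was a median of 1573 nt away, with 93 under 1000 nt, 26 over 5000 nt and a maximum of 17407 nt. At 151 of the 255, the most abundant annotated transcript of that neighbour was under 1 FPKM in all 4 libraries. The neighbour was annotated as a transposon or retrotransposon at 64, or 25.1%, close to the 26.8% among all annotated transcripts. With neighbours under 1000 nt away and at 1 FPKM or more in the pair, the log2 ratios of transcript and neighbour had a Pearson correlation of 0.45 for IR29 salt over control (n = 49), 0.11 for Pok salt over control (n = 45) and 0.47 for Pok control over IR29 control (n = 48). At 1000 nt or more they were 0.04, -0.08 and -0.01. These correlations run across transcripts of the same libraries and are given as descriptions.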

How the data were processed

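The members and gene lists were chosen with earlier results of these data known. The authors aligned reads to the MSU release 6.1 genome of japonica rice with TopHat. They assembled and merged transcripts with Cufflinks and computed FPKM per transcript with Cuffdiff (versions not given in the sources used here). The deposited FPKM table held 1 value per library and transcript. The 4 polysomal libraries were read through their column labels, and 0 columns were left unmapped. A transcript entered a comparison at 5 FPKM or more in at least 1 library of the pair and was counted at a ratio of 2 or more. Medians and differences of salt response were taken of log2 FPKM ratios after adding 1. With 1 library per group no test was made.

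Reads were derived as FPKM times effective length times the read total, with the effective length for a fragment distribution of mean 200, SD 80 nt and a range of 51 to 440 nt. The read total came from values that recur among transcripts of the same span. The length was a complete sequence, or the span of a transcript alone at its locus whose values above 0, at least 2 of them and none over 5000 reads, all came out within 0.005 (plus a relative 1e-05) of a multiple of 0.5 reads. Of 25 transcripts alone at their locus with complete sequences, 16 were as long as the span and 8 of these met the rule, as did 0 of the 9 that were shorter. The read totals and the 2-fold calls were tested on simulated data, and the length rule only on those 25. The simulated data were made with the same effective lengths of the span. They could therefore not test the fragment distribution or a length unlike the span. That distribution was assumed, since the setting used by the authors was not stated. Sequences came from the supplementary material of the study, and none of its values were used. Coordinates are those of the deposited table, written from 1.

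Named transcripts were the 10 of highest mean FPKM, the 5 largest rises and falls per comparison among those above 0 in both libraries, up to 3 listed at 0 in 1 library, the 4 with the largest difference of salt response in each direction among those above 0 in all 4 libraries, and those in loci of 3 or more members, with 1 transcript per locus in ranked lists. Others are marked as named after their values were seen. Alternatives changed the scaling, the ratio, the level and span limits, the zeros, the pseudocount and the members per locus. Python 3.11.15, pandas 2.3.3, numpy 2.4.6 and scipy 1.17.1 were used.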

Additional observations from a re-analysis of the deposited data

Results flagged for a closer look

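In 5 named transcripts the salt response ran opposite ways in IR29 and Pok, at least 2-fold in each, and the difference was not tested. TCONS_00001539 had 5.62 and 0.57 FPKM in IR29 control and salt and 3.53 and 7.45 FPKM in Pok. Its Pok minus IR29 difference in log2 ratio was 2.98, with 1 FPKM added to each value here and below. TCONS_00007678 had 5.14, 13.3, 9.2 and 2.06 FPKM in IR29 control, IR29 salt, Pok control and Pok salt, a difference of -2.96. TCONS_00088773 had 79.8, 166, 460 and 159 FPKM, a difference of -2.57. TCONS_00027048 had 0, 54.5, 7.91 and 0 FPKM, with reads as 10 to 1, a difference of -8.95. TCONS_00058292 had 5.9, 51.3, 11 and 0 FPKM, with reads as 4 to 27 to 4, a difference of -6.51. For TCONS_00027048 and TCONS_00058292 the size of the difference rests on the added 1 FPKM, since they have values at 0. One further transcript, TCONS_00066587, met the same limits but was not among those named by the rule, with 4.08, 9.99, 11.5 and 3.68 FPKM.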

How the results depend on the processing

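With 1 library per group, differences carry no replicate error. No paired analysis was possible because the groups compared share only 1 replicate number, with 1 library each, and no library was left out. A fit of salt with genotype as a block was not made. Depth limits short transcripts most, since 5 FPKM at 200 nt is 3.68 to 8.29 reads.

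The number of intergenic transcripts, 376, became 1579 at a minimum of 1 FPKM, 169 at 10 FPKM, 614 with no limit on span and 93 at 5 FPKM in all 4 libraries. The median span fell from 1539 to 429 nt for transcripts alone at their locus. For IR29 salt over control (103 higher and 25 lower of 275), a ratio of 4 gave 52 and 12 of 275. A minimum of 10 FPKM gave 49 and 13 of 124, and no limit on span 199 and 54 of 472. For Pok salt over control (61 and 32 of 274), a ratio of 4 gave 21 and 8 of 274. A minimum of 10 FPKM gave 24 and 12 of 126, and no limit on span 122 and 65 of 467. Spans of 500 nt or more gave 36 higher of 195 there. Upper-quartile scaling there gave 35 higher of 223 and a median log2 ratio of -0.17 in place of 0.17. For Pok control over IR29 control (89 and 52 of 256), a ratio of 4 gave 57 higher of 256. A minimum of 10 FPKM gave 34 and 22 of 113, no limit on span 165 and 105 of 455, and centring 55 higher of 222. For Pok salt over IR29 salt (78 and 82 of 330), a ratio of 4 gave 50 lower of 330. A minimum of 10 FPKM gave 36 and 38 of 154, and no limit on span 133 and 163 of 556. At a ratio of 4 the number of transcripts considered stayed the same, and under the other settings it changed. Shares of all classes under these settings are not given here, and the cause of the shifts was not tested.

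Transcripts alone at their locus, chosen after seeing the data, gave these counts higher and lower in the same order of comparisons. They were 55 and 13 of 146, 33 and 14 of 145, 43 and 28 of 133, and 43 and 45 of 180. Those with known reads and at least 20 in a library of the pair gave 33 and 6 of 78, 17 and 2 of 71, 21 and 15 of 68, and 18 and 18 of 91. The 35 Pok and 26 IR29 transcripts separated by 10-fold, of 376, were 13 and 8 of 169 at 10 FPKM. They were 61 and 53 of 614 with no limit on span, and 21 and 15 of 201 alone at their locus. Centring and upper-quartile scaling left these counts at 35 and 26, with the 376 transcripts not chosen anew. Scaling could hardly change these counts. In the other genotype the levels were at most 0.326 FPKM for the 35 and 1.11 FPKM for the 26.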
